A study of Homo sapiens with 6 samples.

Results

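The genes described are 10 genes of intermediate filaments, chosen by symbol from the 58735 genes listed in the count and FPKM tables. They are the type II keratins *KRT7*, *KRT8* and *KRT80*, the type I keratins *KRT18* and *KRT19*, the type III filament gene vimentin (*VIM*), the type VI filament gene nestin (*NES*) and the lamin genes *LMNA*, *LMNB1* and *LMNB2*. RNA came from H2452, an established line of human pleural mesothelioma cells, grown in RPMI-1640 with fetal bovine serum. All cells carried a lentivirus encoding Cas9, mCherry and an sgRNA, and mCherry-positive cells had been sorted by flow cytometry. The 3 libraries of sgCtrl carried a scrambled sgRNA and the 3 libraries of sgNF2-1 carried 1 of the sgRNAs that the study used against *NF2*. Each group is therefore a sorted population of 1 line with 1 sgRNA, and other guides or lines were not measured here. The sources name replicates but do not say whether they were separate cultures, so p-values measure only the spread between these libraries.

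Intermediate filaments are built from proteins with a central coiled-coil rod, and the type of protein differs between cell types. Type I and type II keratins form obligate pairs in epithelial cells, with *KRT8* and *KRT18* as the common pair of simple epithelia, and *KRT7* and *KRT19* joining them in ducts, glands and mesothelium. Vimentin builds the filaments of mesenchymal cells, and mesothelial cells are known for holding keratins and vimentin together. Lamins form the meshwork under the inner nuclear membrane. Epithelioid mesotheliomas keep a keratin-rich, polygonal form, whereas sarcomatoid tumours are spindle-shaped and lean towards mesenchymal genes, which is the contrast against which the values are laid out.

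The libraries held 14782423 to 17416463 counts, and the 10 genes together took 0.706% to 0.805% of them. *NF2*, the targeted gene, had 1162, 1197 and 1025 counts in sgCtrl and 692, 802 and 590 in sgNF2-1, a log2 fold change of -0.69 (SE 0.10, edgeR adjusted p = 7.9e-06), so its RNA was lower but still present. The study judged the knockout by western blot, and these counts do not measure the loss of NF2 protein. The 8 mesothelial markers checked summed to 167.4 to 176 CPM in sgCtrl and 161 to 180.3 CPM in sgNF2-1, but this sum hides opposite changes. From sgCtrl to sgNF2-1, *MSLN* went from 36.3 to 57.5 CPM and *BNC1* from 50.1 to 72.9. *PDPN* went from 67.8 to 28.0 CPM and *WT1* from 9.99 to 4.85. *CALB2* (calretinin) and *WT1* were present in every library at low levels, and *LRRN4* and *UPK1B* had at most 5 and 2 counts in a library. Of 3 leukocyte markers, *PTPRC* had 0 counts in every library and the sum stayed under 1 CPM. The 3 endothelial markers summed to 6.18 to 8.51 CPM in sgCtrl and 1.93 to 3.23 CPM in sgNF2-1, through *PECAM1*, whose log2 fold change was -2.28 (edgeR adjusted p = 1.7e-07), and the part of this difference in the filament values was not tested.

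CPM scales a gene's count to the library total after TMM normalization, and FPKM, computed by the authors, divides the scaled count by the gene's length as well. A gene is said to have risen or fallen where edgeR's quasi-likelihood test gave an adjusted p under 0.05 over the 14179 genes that passed the filter on low counts. Of the 10 genes, 9 passed that filter and 5 of the 9 changed, 3 of them rising (*KRT7*, *KRT80*, *KRT18*) and 2 falling (*KRT19*, *LMNB1*). Among all tested genes 34.3% changed, 17.7% rising and 16.6% falling. With a log2 fold change beyond 0.5 required as well, 2 of the 9 rose and 2 fell, against 8.42% and 9.32% of all tested genes. The groups did not overlap in 6 of the 9 genes, against 45.3% of all tested genes. These are bulk libraries, in which fewer cells expressing a gene and less of its RNA per cell cannot be told apart. The median log2 fold change of the 9 genes was 0.05, and that of all tested genes was -0.0025.

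**Figure D1:**
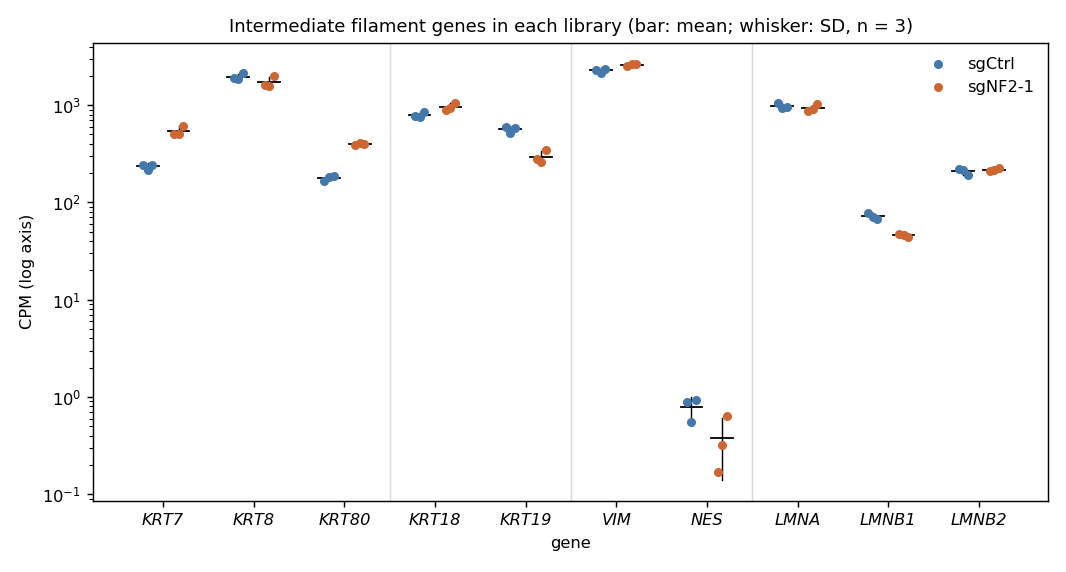
Level of each of the 10 genes in each library, as CPM on a log axis, with sgCtrl in blue and sgNF2-1 in orange, bars for the group means and whiskers for the SD (n = 3). *KRT7* and *KRT80* sit higher and *KRT19* and *LMNB1* lower in all 3 sgNF2-1 libraries, while *NES* lies under 1 CPM throughout.

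The type II keratins *KRT7* and *KRT80* both rose to over 2 times their sgCtrl level, whereas *KRT8*, the most abundant type II keratin, did not pass the test. *KRT7* (ENSG00000135480, chr12:52232520-52252186, plus strand), the keratin of glandular and mesothelial cells, had 3863, 3558 and 3723 counts in sgCtrl and 8964, 7737 and 8799 in sgNF2-1. Every sgNF2-1 library was above every sgCtrl library. The mean CPM was 235.3 ± 16.4 in sgCtrl and 542.1 ± 65 in sgNF2-1 (SD, n = 3), for a log2 fold change of 1.20 (SE 0.09, 95% interval 1.01 to 1.39, edgeR adjusted p = 2.5e-10). *KRT80* (ENSG00000167767, chr12:52168996-52192000, minus strand), a type II keratin found in many differentiating epithelia, had 2646, 3003 and 2813 counts in sgCtrl and 6848, 6274 and 5675 in sgNF2-1. Its groups were again separate, with little spread within either. Its mean in CPM came to 178.4 ± 9.48 in sgCtrl and 397.5 ± 8.67 in sgNF2-1 (SD, n = 3), for a log2 fold change of 1.16 (SE 0.08, 95% interval 0.99 to 1.32, edgeR adjusted p = 5.1e-11).

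*KRT8* (ENSG00000170421, chr12:52897187-52949954, minus strand), the type II partner of *KRT18*, had 29886, 30691 and 32147 counts in sgCtrl and 28276, 24397 and 28526 in sgNF2-1. On the CPM scale sgNF2-1 replicate 3 lay within the sgCtrl range and the other sgNF2-1 libraries lay below it, so the groups overlapped. The mean CPM was 1958 ± 136.7 in sgCtrl and 1728 ± 236.4 in sgNF2-1 (SD, n = 3), for a log2 fold change of -0.18 (SE 0.10, 95% interval -0.38 to 0.02, edgeR adjusted p = 0.16). Without sgNF2-1 replicate 3 the log2 fold change was -0.30 and passed the test (edgeR adjusted p = 0.012).

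Among the type I keratins, *KRT18* rose by a small amount and *KRT19* fell to little over 0.5 times its sgCtrl level. *KRT18* (ENSG00000111057, chr12:52948871-52952901, plus strand) had 12233, 12406 and 13017 counts in sgCtrl and 15667, 14568 and 15159 in sgNF2-1. The groups did not overlap, but the gap was narrow. Its mean in CPM came to 795.2 ± 54 in sgCtrl and 964.8 ± 89.1 in sgNF2-1 (SD, n = 3), for a log2 fold change of 0.28 (SE 0.09, 95% interval 0.10 to 0.46, edgeR adjusted p = 0.017). This call was lost without sgCtrl replicate 1 (edgeR adjusted p = 0.061), without sgCtrl replicate 2 (0.095) or without sgNF2-1 replicate 3 (0.066), and it was not made on FPKM (limma adjusted p = 0.07).

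*KRT19* (ENSG00000171345, chr17:41523617-41528308, minus strand), a type I keratin that lacks the tail domain of its relatives, had 9391, 8519 and 8869 counts in sgCtrl and 4903, 4055 and 4925 in sgNF2-1. All sgNF2-1 libraries were below all sgCtrl libraries. The mean CPM was 565.4 ± 41.4 in sgCtrl and 295.3 ± 44.1 in sgNF2-1 (SD, n = 3), for a log2 fold change of -0.94 (SE 0.10, 95% interval -1.14 to -0.74, edgeR adjusted p = 3.6e-08). *KRT7* and *KRT19*, which are often described together in simple epithelia, thus moved in opposite directions.

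The keratin total showed little of these opposite changes. The summed FPKM of the 5 keratins was 828 ± 47.8 (SD, n = 3) in sgCtrl and 847.3 ± 88.2 in sgNF2-1, with overlapping groups. Within that sum, the share of *KRT7* went from 6.59% to 14.7% and that of *KRT80* from 4.71% to 10.2%. The share of *KRT19* went the other way, from 27.8% to 14.0%. The common pair also shifted, with *KRT8* going from 32.6% to 27.8% and *KRT18* from 28.3% to 33.3%. None of these 5 shares overlapped between the groups, but as parts of 1 sum they depend on each other. The CPM of *KRT8* itself did overlap. As FPKM ratios, *KRT7* to *KRT19* was 0.238 ± 0.0025 (SD, n = 3) in sgCtrl and 1.05 ± 0.0352 in sgNF2-1, and *KRT8* to *KRT18* was 1.15 ± 0.0078 and 0.836 ± 0.049. The type II to type I FPKM ratio was 0.783 ± 0.0261 (SD, n = 3) in sgCtrl and 1.11 ± 0.0159 in sgNF2-1. The shares and ratios describe the same counts as the tests above and carry no test of their own.

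**Figure D2:**
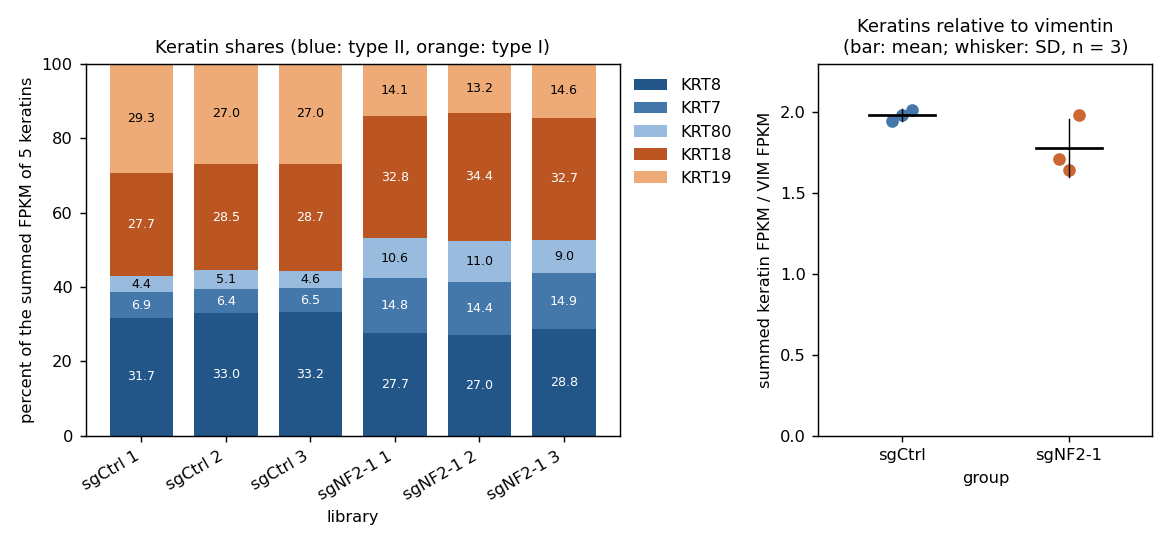
Left, percent of the summed FPKM of 5 keratins taken by each keratin in each library, type II in blue and type I in orange. Right, summed keratin FPKM over *VIM* FPKM in each library, with group means and SD (n = 3): the shares of *KRT7* and *KRT80* are larger in sgNF2-1, and the ratio to *VIM* overlaps between the groups.

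*VIM* (ENSG00000026025, chr10:17228259-17237593, plus strand), which encodes the main filament of mesenchymal cells, had the highest FPKM of the 10 genes in both groups. It had 36375, 35164 and 35983 counts in sgCtrl and 44803, 41242 and 37487 in sgNF2-1. On the CPM scale the groups did not overlap, but their difference was small. Its mean in CPM came to 2270 ± 118.3 in sgCtrl and 2613 ± 64.4 in sgNF2-1 (SD, n = 3), for a log2 fold change of 0.20 (SE 0.09, 95% interval 0.02 to 0.38), and it did not pass the test (edgeR adjusted p = 0.072). The test was passed with DESeq2 (adjusted p = 0.02), without the filter on low counts (edgeR adjusted p = 0.048) and without sgCtrl replicate 3 (edgeR adjusted p = 0.036).

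The keratin to vimentin ratio sets the epithelial filaments against the mesenchymal one within each library. The summed keratin FPKM over *VIM* FPKM was 1.95, 1.98 and 2.02 in sgCtrl and 1.71, 1.64 and 1.98 in sgNF2-1. Replicates 1 and 2 of sgNF2-1 were below every sgCtrl library and replicate 3 was within their range, so the groups overlapped. The means were 1.98 ± 0.036 (SD, n = 3) and 1.78 ± 0.181, a log2 difference of -0.16.

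*NES* (ENSG00000132688, chr1:156668763-156677397, minus strand), a filament gene of neural and other progenitors that forms filaments with vimentin, had 14, 9 and 14 counts in sgCtrl and 3, 5 and 9 in sgNF2-1. The groups touched at 9 counts, and these counts were too low for the filter. Without the filter its log2 fold change was -1.07 (SE 0.62, edgeR adjusted p = 0.29). It passed the filter when 1 of 4 libraries was left out, with values from -0.71 without sgNF2-1 replicate 1 (edgeR adjusted p = 0.41) to -1.65 without sgNF2-1 replicate 3 (0.067). A difference was not detectable at this depth.

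Of the lamins, *LMNB1* fell and *LMNA* and *LMNB2* did not pass the test. *LMNB1* (ENSG00000113368, chr5:126776623-126837020, plus strand), a B-type lamin that stays farnesylated and bound to the membrane, had 1227, 1151 and 1034 counts in sgCtrl and 841, 713 and 636 in sgNF2-1. The groups were separate. The mean CPM was 71.9 ± 5.11 in sgCtrl and 46.1 ± 1.56 in sgNF2-1 (SD, n = 3), for a log2 fold change of -0.64 (SE 0.09, 95% interval -0.83 to -0.45, edgeR adjusted p = 4.6e-06). *LMNA* (ENSG00000160789, chr1:156082573-156140089, plus strand), which encodes lamins A and C by alternative splicing, had 16771, 15537 and 14412 counts in sgCtrl and 15493, 14167 and 14527 in sgNF2-1. The counts are per gene and do not separate lamin A from lamin C. Its mean in CPM came to 985 ± 66.8 in sgCtrl and 938.1 ± 72.2 in sgNF2-1 (SD, n = 3), for a log2 fold change of -0.07 (95% interval -0.25 to 0.11, edgeR adjusted p = 0.57). *LMNB2* (ENSG00000176619, chr19:2427638-2456996, minus strand), the other B-type lamin gene, had 3467, 3561 and 2887 counts in sgCtrl and 3704, 3322 and 3191 in sgNF2-1. Its groups overlapped. The log2 fold change was 0.05 (95% interval -0.12 to 0.22, edgeR adjusted p = 0.67), and without sgCtrl replicate 3 it was -0.01.

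The share of *LMNB1* in the summed lamin FPKM was 9.93% in sgCtrl and 6.82% in sgNF2-1. The FPKM ratio of *LMNA* to *LMNB1* was 7.13 ± 0.115 (SD, n = 3) in sgCtrl and 10.6 ± 1.17 in sgNF2-1. Proliferation genes moved in the same libraries: 7 of the 10 listed genes fell and 0 rose, against 16.6% falling and 17.7% rising among all tested genes. Their median log2 fold change was -0.31, and *PCNA*, the sliding clamp of DNA replication, was at -0.86 (edgeR adjusted p = 1.2e-08). Without sgCtrl replicate 3, or without sgNF2-1 replicate 3, 5 of them fell, as the calls of *BUB1* and *CCNA2* were lost. *CCNB1*, *AURKA* and *MCM2* did not pass the test, at 0.10, 0.04 and 0.03. Whether these genes and *LMNB1* are linked was not tested.

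As FPKM, which is per length and so compares genes, the order in sgCtrl was *VIM* (417.8), *KRT8* (270.1), *KRT18* (234.6), *KRT19* (229.8), *LMNA* (133.9), *KRT7* (54.6), *KRT80* (38.9), *LMNB2* (36.5), *LMNB1* (18.8) and *NES* (0.134). Neighbours in this order were separate in every library except *KRT18* and *KRT19*, and *KRT80* and *LMNB2*. In sgNF2-1 the order was *VIM* (476.4), *KRT18* (281.9), *KRT8* (236.1), *LMNA* (126.3), *KRT7* (124.5), *KRT19* (118.9), *KRT80* (85.9), *LMNB2* (37.4), *LMNB1* (11.9) and *NES* (0.0634). There *KRT18* and *KRT8*, *LMNA* and *KRT7*, and *KRT7* and *KRT19* were not separate. Tested with limma on log2(FPKM + 1), 4 of 9 genes changed (*KRT7* and *KRT80* up, *KRT19* and *LMNB1* down), against 28.4% of 13038 tested genes.

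This order rests on the gene lengths behind the FPKM, which equal all exon bases of a gene in any transcript. For *KRT8* that length is 6881 bases, whereas its transcript with the longest coding sequence has 1687. For *VIM* the lengths are 5158 and 1868 bases. Rescaled to the length of that transcript in each gene, *VIM* stood at 1154 and *KRT8* at 1102 in sgCtrl, and their libraries were no longer separate. On that scale the ratio of *KRT8* to *KRT18* was 2.28 in sgCtrl and 1.65 in sgNF2-1, and that of *KRT7* to *KRT19* was 0.330 and 1.46. The type II to type I ratio was 1.46 and 1.73, so type II keratins exceeded type I in both groups. The keratin shares given above also rest on the gene lengths and were not rescaled. For *KRT8* to *KRT18* and *KRT7* to *KRT19* the fold change between the groups is the same with any length, because each gene is rescaled by a constant. The type II to type I ratio, a ratio of sums, was higher in sgNF2-1 with either length.

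**Figure D3:**
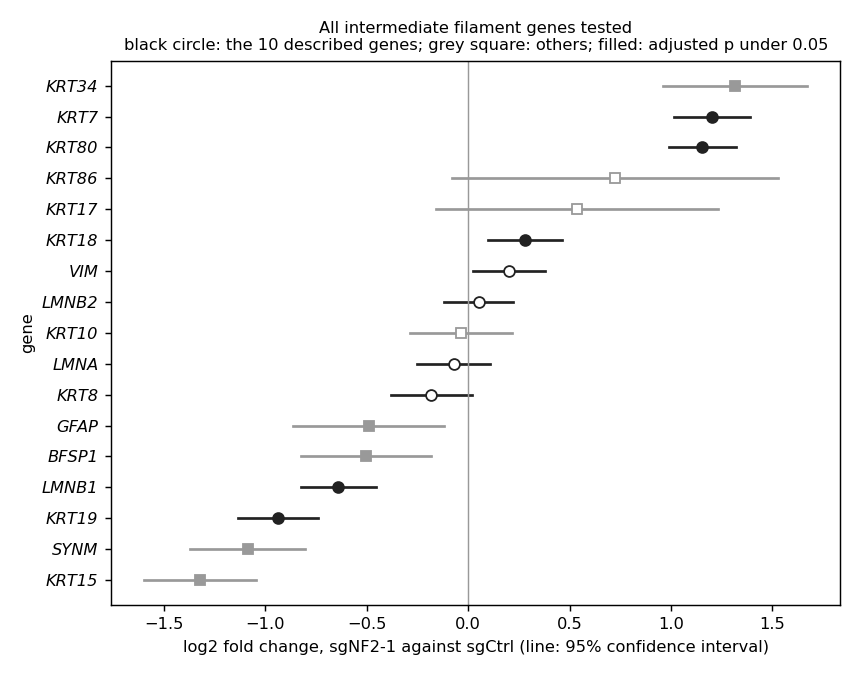
Log2 fold change of sgNF2-1 against sgCtrl with its 95% confidence interval for the 9 tested genes (black circles) and the 8 other intermediate filament genes tested (grey squares), filled where the adjusted p was under 0.05. *KRT7* and *KRT80* lie beside *KRT34* at the upper end, and *KRT19* beside *SYNM* and *KRT15* at the lower end.

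Of the 60 other intermediate filament genes in the table, 37 had 0 counts in every library and 8 could be tested. Of the 8, 1 rose and 4 fell, against 17.7% rising and 16.6% falling among all tested genes, and the median log2 fold change was -0.26. *KRT34*, a type I keratin of hair, rose from 61, 93 and 82 counts to 208, 177 and 200, a log2 fold change of 1.32 (edgeR adjusted p = 1.6e-06). *KRT15*, a type I keratin of basal epithelial cells, fell from 408, 363 and 367 counts to 144, 154 and 154, a log2 fold change of -1.32 (edgeR adjusted p = 3e-08). *SYNM* (synemin), a partner of vimentin and desmin filaments, fell by 1.09 on the log2 scale, and *BFSP1*, a lens filament gene, by 0.50. *GFAP* fell by 0.49, a call lost without sgCtrl replicate 2 or 3 or sgNF2-1 replicate 1 or 2 (edgeR adjusted p of 0.08 to 0.12) and with DESeq2 (adjusted p = 0.056), while *KRT86*, *KRT17* and *KRT10* did not pass the test, at 0.72, 0.54 and -0.03. Without sgCtrl replicate 2, only 3 of these genes changed instead of 5, with *BFSP1* (edgeR adjusted p = 0.075) and *GFAP* no longer called. The type I keratins thus included genes that rose (*KRT18*, *KRT34*) and genes that fell (*KRT15*, *KRT19*).

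*KRT80*, *KRT7*, *KRT8* and *KRT18* lie within 783.9 kb of chromosome 12, in the type II keratin cluster. Of the 27 keratin genes there, pseudogenes not counted, 21 had at most 3 counts in every library and 5 could be tested. *KRT80* and *KRT7* are near neighbours, and *KRT7-AS*, *KRT86* and *KRT87P* beside them had log2 fold changes of 0.85, 0.72 and 0.64 on few counts, none of which passed the test. *KRT7* shares 282 exon bases with *KRT7-AS* and 32 with *KRT87P*, both on the opposite strand. How many of the counts of these genes come from *KRT7* was not tested. With 250 kb added on each side, 17 genes were tested, of which 5 rose and 3 fell, against 17.7% and 16.6% of all tested genes. On chromosome 17, *KRT19* has *KRT15* and *KRT34* within 250 kb, so the type I cluster held genes that rose and genes that fell.

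**Figure D4:**
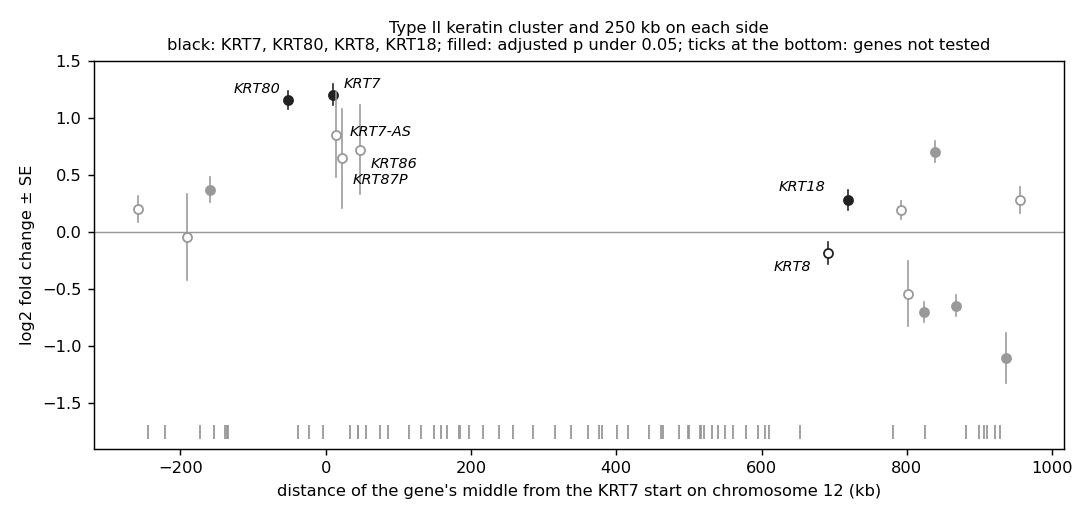
Log2 fold change ± SE of the genes tested in the type II keratin cluster and 250 kb on each side, against the distance of the gene's middle from the start of *KRT7* in kb, filled where the adjusted p was under 0.05. *KRT80* and *KRT7* stand out near 0 kb, *KRT8* and *KRT18* lie near each other at the far end, and ticks mark genes that could not be tested.

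Some of these counts could be shared with other genes, as some exons overlap and whether the counting used strand is not given in the sources used here. *KRT8* and *KRT18* lie on opposite strands and share 525 exon bases, which is 16.3% of the exon bases of *KRT18* and 7.63% of those of *KRT8*. Reads from these bases cannot be told apart without strand. *VIM* shares 641 exon bases with the antisense gene *VIM-AS1* and 619 with *AL133415.1*, and *VIM-AS1* had 74 to 101 counts, 0.206% to 0.278% of *VIM*. The 50 *KRT8* pseudogenes together had 178 to 255 counts, at most 0.902% of *KRT8*, and the 67 *KRT18* pseudogenes had 5 to 21. The 5 *KRT19* pseudogenes had 0 counts. All stretches of 150 bases, the read length, were taken from each gene's transcript with the longest coding sequence and compared on either strand. Of these, 28.6% in *VIM* were identical to *VIM-AS1* transcripts. The same held for 155 of 1413 in *KRT18* with *KRT8* transcripts and 77 of 1605 in *KRT7* with *KRT7-AS* transcripts. No such stretch of *KRT8*, *KRT19*, *KRT80*, *NES* or the 3 lamin genes was identical to a transcript of another gene. Over all its exons, however, *LMNB2* shares 257 bases, 4.73% of its exon bases, with *TIMM13*, and 46 with *MIR7108*. Both lie on the same strand as *LMNB2*, so counting by strand would not separate reads from these bases.

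Of the 9 tested genes *KRT7* had the largest estimate, 1.20 against 1.16 for *KRT80*, a gap smaller than either SE. The order of these estimates was reversed without sgCtrl replicate 2 (1.15 and 1.17) and without sgNF2-1 replicate 3 (1.10 and 1.16). The 5 tested genes most like *KRT7* across the 6 libraries, by Pearson correlation of log2 CPM, were *EIF4EBP1* (r = 0.999), *DDX51*, *SNHG15*, *TRMT1* and *AHR* (r = 0.998). Because 3 libraries of each group make up these 6 points, 1545 genes had r over 0.9, and the value is given as a description.

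The filament anchors, which tie intermediate filaments to desmosomes, hemidesmosomes and other cytoskeletal fibres, changed about as often as all tested genes. Of 21 listed genes 16 were tested, and 5 changed, against 34.3% of all tested genes. Of the 5, 4 rose and 1 fell, and the median log2 fold change was 0.02. This split was 3 rising and 3 falling with library totals in place of TMM, and 4 and 3 without sgCtrl replicate 1, where *DST* and *MACF1* fell as well. *PKP2* (plakophilin 2), a desmosome plaque gene, rose from 2.03 CPM in sgCtrl to 6.18 CPM in sgNF2-1, and its log2 fold change was 1.60 (edgeR adjusted p = 4.6e-06). *DSP* (desmoplakin), which links keratins to desmosomes, rose by 0.79 and *PKP4* by 0.51, both as log2 fold changes. *PPL* (periplakin) fell by 0.50 on the log2 scale. *ITGB4*, an integrin of hemidesmosomes, rose by 0.22, a call lost with library totals and without any single library other than sgCtrl replicate 2 (edgeR adjusted p of 0.051 to 0.1). *PLEC* (plectin), the crosslinker that binds keratins and vimentin, did not pass the test at 0.05. The desmosomal cadherin *DSG2* (57.8 CPM in sgCtrl and 59 in sgNF2-1) and the plaque gene *JUP* (53.1 and 47) were present in every library and did not pass the test. The related genes *DSC2*, *DSC3* and *PKP1* had 0 counts in every library, which allows up to 3 counts in each, for counting error only.

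Among the lamin partners, all 25 listed genes were tested, 4 rose and 6 fell, against 17.7% rising and 16.6% falling among all tested genes, and the median log2 fold change was -0.0017. Over 12 alternatives 8 to 12 of them were called. The split was 5 rising and 5 falling without the filter on low counts, and 4 and 4 without sgCtrl replicate 2 or without sgNF2-1 replicate 1. *SYNE3* and *SYNE1*, which code for nesprins of the outer nuclear membrane, rose by 1.12 and 0.53 as log2 fold changes. Of the other nesprin genes, *SYNE2* fell by 0.48, a call lost without sgCtrl replicate 2 (edgeR adjusted p = 0.2), sgNF2-1 replicate 1 (0.069) or sgNF2-1 replicate 3 (0.12), and *SYNE4* did not pass the test at 0.45. *TOR1AIP1*, which encodes a lamin-binding protein of the inner membrane, fell by 0.51 on the log2 scale (edgeR adjusted p = 9.3e-05). *LBR*, the lamin B receptor, did not pass the test at 0.08, nor did the lamin-binding *TMPO* at -0.05.

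Markers of the epithelial and mesothelial state went both ways, and the mesenchymal list leaned downwards. Of 19 epithelial and mesothelial genes 13 were tested, 6 rose and 4 fell, against 17.7% rising and 16.6% falling among all tested genes. Their median log2 fold change was 0.19. *OCLN* (occludin), a tight junction gene, rose from 0.739 CPM in sgCtrl to 3.64 CPM in sgNF2-1, and its log2 fold change was 2.29 (edgeR adjusted p = 7.7e-06). *MSLN* (mesothelin) rose by 0.66, whereas *PDPN* (podoplanin) fell by 1.28 and *WT1* by 1.04, all on the log2 scale. *CDH1* (E-cadherin) had 0 counts in every library, as did the epithelial regulator *GRHL2*, which allows up to 3 counts in each. Of 17 mesenchymal genes 16 were tested, 1 rose and 11 fell, against the same 17.7% and 16.6%. The median log2 fold change of this list was -0.54. The collagen I genes *COL1A2* and *COL1A1* each fell by 2.95 on the log2 scale, *S100A4* fell by 1.38 and *SPARC* fell by 1.24. *SNAI2*, a transcription factor of the mesenchymal transition, rose by 0.80, and this call was lost without sgCtrl replicate 2 (edgeR adjusted p = 0.083), sgNF2-1 replicate 1 (0.075) or sgNF2-1 replicate 2 (0.07). The factors *ZEB1* and *ZEB2* did not pass the test, at -0.15 and 0.04. *VIM*, itself a mesenchymal marker, was not on that list, and at 0.20 it lay above every tested gene of the list but *SNAI2*.

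**Figure D5:**
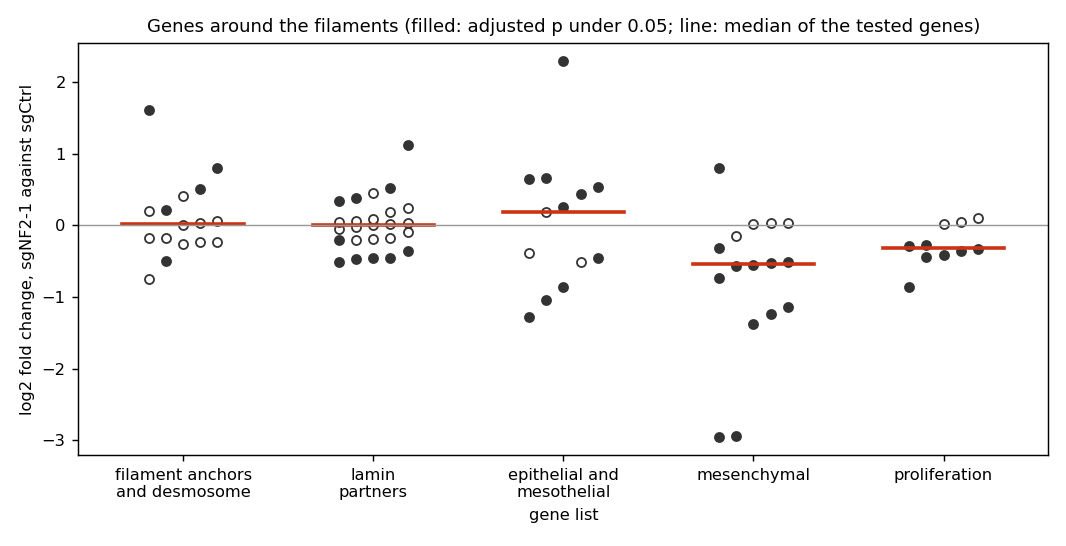
Log2 fold change of each tested gene of 5 lists, filled where the adjusted p was under 0.05, with a red line at the list's median. The mesenchymal and proliferation lists have medians of -0.54 and -0.31, and each of the 5 lists has genes on both sides of 0.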

How the data were processed

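The authors deposited raw counts per gene, which they made from paired-end reads, and FPKM values derived from them. The submitters' processing notes name HISAT2, StringTie 1.3.3b, featureCounts 1.5.0-p3 and hg38, without roles, and whether counting used strand is not given in the sources used here. Groups and replicate numbers came from the sample titles. The libraries held 14782423 to 17416463 counts, and replicate pairs differed by more than counting noise. Counts were filtered (filterByExpr, minimum count 10, minimum total 15), normalized by TMM and tested with edgeR 4.0.16 in R 4.3.3 with group as the only term, adjusted by Benjamini-Hochberg over 14179 genes. The deposited FPKM were tested with limma 3.58.1 as log2(FPKM + 1), over 13038 genes averaging 0.5 FPKM or more. An exact permutation test of a single gene cannot give a p under 0.10 with these group sizes. The steps were checked on simulated counts. Alternatives were DESeq2 1.42.0, other scalings and filters, a replicate block, leaving out each library, a pseudocount of 0.1 for FPKM and, added after the values were seen, transcript lengths. The members and lists were chosen with earlier results of these data known. Besides the members, the genes named were those with an adjusted p under 0.05, a log2 fold change beyond 0.5, no overlap and a mean CPM of at least 1, at most 4 a direction and list; others named were chosen after their values were seen. Sequences of the genes are not reported here.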

Additional observations from a re-analysis of the deposited data

How the results depend on the processing

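*KRT7*, *KRT80*, *KRT19* and *LMNB1* kept their direction and their call in all 12 alternatives on counts and all 9 on FPKM, with log2 fold changes of 1.10 to 1.26, 1.11 to 1.18, -1.06 to -0.86 and -0.68 to -0.58 on counts. *KRT18*, *KRT8* and *VIM* lie near the threshold: 4 to 7 genes were called over the 12 alternatives on counts and 4 to 5 on FPKM, while 4 were called with the fold limit in all 13. Leaving out 1 library at a time, *LMNB2* ranged from -0.0103 to 0.0893 on counts and from -0.0265 to 0.0765 on FPKM, with the negative value without sgCtrl replicate 3, and the other intermediate filament genes called ranged from 3 to 5. The log2 difference of the keratin to vimentin ratio lay between -0.24 and -0.11 over 9 alternatives. Libraries of the same replicate number showed little correlation of deviations (-0.032, 0.057 and 0.050), which does not describe single genes. *KRT8* (2115 and 2000 CPM) and *KRT18* (856 and 1063 CPM) were highest in replicate 3 of both groups. *VIM* was highest in replicate 3 of sgCtrl and replicate 2 of sgNF2-1. A replicate block called 5199 genes instead of 4866 and 7 of the 9 tested members instead of 5. It added *KRT8* at -0.19 (edgeR adjusted p = 0.022) and *VIM* at 0.20 (0.012). On FPKM the block added *KRT18* at 0.26 (limma adjusted p = 0.022). The cause of these changes was not tested. Depth limits *NES*, which had at most 14 counts in a library.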
